A study of Mus musculus with 15 samples.

Results

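The genes described here were *Hba-a1* and *Hba-a2*, which encode the adult α chains of haemoglobin, *Hbb-bs* and *Hbb-bt*, which encode its adult β chains, and *Alas2*, which encodes the erythroid form of 5-aminolevulinate synthase. They were taken by name from the expression tables of mouse mammary tissue, and all 5 were found among 52526 genes with a distinct name. In each of 15 mice the 4 haemoglobin genes were above 0, whereas *Alas2* was above 0 in 7 mice and listed at 0 in the other 8. The mice were female nu/nu nude mice (Crl:NU-Foxn1nu), which lack a normal thymus and therefore most T cells. From 8 weeks of age they carried subcutaneous osmotic mini-pumps for 16 weeks. The pumps of 7 mice delivered BDE-47, a brominated diphenyl ether formerly used as a flame retardant, dissolved in PEG300 with 1% DMSO and dosed to reach 0.03 mg/kg/d. The pumps of 8 mice delivered the PEG300 and DMSO vehicle alone. The tissue was the left 4th mammary fat pad, with 1 library per mouse, so that n counts mice throughout. Some nude mice of the study also received xenografts, and the sample labels do not say which, so the xenograft was not used as a covariate.

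Haemoglobin is a tetramer of α and β chains, each of which holds a haem group that binds oxygen. Mature red cells of mice have no nucleus, but reticulocytes that have just entered the circulation still carry globin mRNA, so bulk tissue that was not cleared of blood usually yields some globin reads. *Alas2* catalyses the first step of haem synthesis in red cell precursors, whereas *Alas1* does so in other cells. In bulk tissue fewer cells of a type and less RNA per cell cannot be told apart. The values are log2(CPM), where CPM scales reads to a fixed total of mapped reads. The libraries were made by 3′ end sequencing, in which reads mark transcript ends, so CPM is not divided by transcript length, and comparisons between genes below are of shares of reads on that scale.

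In the GRCm38.p6 mouse assembly *Hba-a1* lies at chr11:32283672-32284486 and *Hba-a2* at chr11:32296492-32297310. *Hbb-bs* lies at chr7:103826523-103827928, *Hbb-bt* at chr7:103812524-103813923 and *Alas2* at chrX:150547417-150570622. The RefSeq promoters are shown because the members moved together across mice to different extents. Each sequence holds the 150 bases before the transcript start, written 5′ to 3′ along the gene's strand. They were read at chr11:32283522-32283671 (plus strand), chr7:103827929-103828078 (minus), chr7:103813924-103814073 (minus) and chrX:150547267-150547416 (plus). Capitals mark 4 motifs, TATAA and CCAAT on the gene's strand and CACCC and GATAA on either strand, so that GGGTG and TTATC are the last 2 read on the opposite strand.
Hba-a1: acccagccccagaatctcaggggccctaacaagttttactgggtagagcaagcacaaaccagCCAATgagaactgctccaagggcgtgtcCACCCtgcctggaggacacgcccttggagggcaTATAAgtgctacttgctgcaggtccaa
Hbb-bs: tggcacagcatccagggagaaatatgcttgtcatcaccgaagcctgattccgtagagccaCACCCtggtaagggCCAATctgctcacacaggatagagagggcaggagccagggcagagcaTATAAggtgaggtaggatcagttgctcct
Hbb-bt: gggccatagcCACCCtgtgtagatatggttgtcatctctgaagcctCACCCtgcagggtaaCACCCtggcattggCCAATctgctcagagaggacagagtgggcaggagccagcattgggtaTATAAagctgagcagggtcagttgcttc
Alas2: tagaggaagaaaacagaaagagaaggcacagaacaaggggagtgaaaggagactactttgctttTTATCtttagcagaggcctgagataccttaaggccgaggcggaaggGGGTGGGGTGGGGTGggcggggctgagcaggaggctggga
The window of *Hba-a2* is that of *Hba-a1* moved by a few bases, with 147 aligned bases identical and 0 mismatches, and is not printed. In the α and β promoters, the first base of TATAA lies between positions -30 and -27 from the transcript start. Each of the 4 haemoglobin promoters holds the first 3 motifs named above. That combination occurred in 152 of 32851 promoter windows of the same length (0.463%), against 9.99% for TATAA, 13.3% for CCAAT and 37.4% for CACCC alone. The 4 promoters are not independent cases, since the α windows are near copies and the β windows are 72.4% identical. These shares are a description without a test. The *Alas2* window holds CACCC 3 times and GATAA, the core letters bound by GATA factors, once, and 13.3% of all windows hold GATAA. These matches are letters in a window and say nothing of which factor was bound.

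The copies within each chain type are alike, which bears on how reads are assigned to them. The last 300 transcript bases, where 3′ end reads fall, were cut into 251 windows of 50 bases. Of these windows *Hba-a1* shared 79.7% with *Hba-a2*, and *Hbb-bs* shared 35.9% with *Hbb-bt*. No window was shared between an α and a β gene. How reads that match both copies were counted is not given in the sources used here. Values of *Hba-a1* and *Hba-a2* taken singly are therefore uncertain, and those of *Hbb-bs* and *Hbb-bt* less so. Sums over the α pair and over the β pair are not changed by moving reads between copies, but reads left out for matching both would lower the α sum more than the β sum, which was not tested.

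Recovered depth was 10.06 to 19.58 M mapped reads per mouse, with 6932 to 12689 genes above 0. Checked against the label of mammary fat pad, all 10 adipocyte markers were above 0 in 12 of 15 mice and 7 or 8 of 10 epithelial markers in each mouse. Vehicle replicates 6 and 8 stood apart. All 8 lymph node B cell markers were above 0 in both, with summed levels of 632 and 697 CPM against at most 9.87 CPM in the other 13 mice. Their 10 adipocyte markers summed to 506 and 1222 CPM against 4111 to 32813 CPM elsewhere, and their epithelial markers to 49.0 and 134 CPM. BDE-47 replicate 6 had a summed skeletal muscle level of 84118 CPM against at most 184 CPM in any vehicle mouse. Vehicle replicate 1 held transcripts of blood cell precursors that are described further on. The differences, shares, ratios and correlations of the members are given with and without these 4 mice.

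Over 15 mice *Hba-a1* had the highest mean log2(CPM) of the members, 8.45 against 7.82 for *Hbb-bs*. The β gene *Hbb-bs* reached the highest value in a single mouse. In vehicle replicates 1 to 8 its log2(CPM) was 10.47, 8.18, 10.02, 7.91, 8.56, 4.31, 7.99 and 5.43. In BDE-47 replicates 1 to 7 it was 7.14, 8.81, 8.82, 7.28, 5.89, 7.32 and 9.21. Vehicle replicates 1 and 3 lay above all other mice, vehicle replicates 6 and 8 lay below all others, and the groups overlapped. The highest mouse exceeded the lowest by 71.3-fold. The other β gene, *Hbb-bt*, was 8.33, 3.93, 8.26, 5.34, 6.27, 1.71, 6.76 and 3.60 in vehicle mice and 5.86, 6.88, 6.50, 3.53, 4.68, 5.51 and 7.42 in BDE-47 mice. It too was highest in vehicle replicates 1 and 3 and lowest in vehicle replicate 6, over a 98.3-fold range.

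Among the α genes, *Hba-a1* varied least. Its log2(CPM) was 9.02, 8.63, 9.30, 8.44, 8.52, 7.36, 8.16 and 6.91 in vehicle mice and 9.26, 8.78, 8.93, 8.46, 8.17, 8.26 and 8.58 in BDE-47 mice. Vehicle replicates 6 and 8 were again the lowest, but the whole range was 5.24-fold. The copy *Hba-a2* was 7.79, 5.05, 7.71, 6.06, 6.60, 1.53, 5.11 and 4.93 in vehicle mice and 5.69, 7.34, 7.00, 5.27, 4.38, 5.58 and 7.70 in BDE-47 mice. Its range was 76.3-fold, and the value of 1.53 in vehicle replicate 6 rests on 45 reads. The SD over 15 mice was 0.65 for *Hba-a1*, against 1.65 for *Hba-a2*, 1.67 for *Hbb-bs* and 1.87 for *Hbb-bt*. Among genes whose mean level lay within 0.5 of the member's, 52.3% of 88 genes had a larger SD than *Hba-a1*. The same share was 12.9% of 828 genes for *Hba-a2*, 8.43% of 178 for *Hbb-bs* and 6.04% of 943 for *Hbb-bt*.

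The level of *Alas2* was 4.13 in vehicle replicate 1, 4.52 in replicate 3, 4.94 in replicate 4 and 0.69 in replicate 5, and it was listed at 0 in vehicle replicates 2, 6, 7 and 8. It was 4.12, 4.15 and 2.64 in BDE-47 replicates 1, 3 and 6 and listed at 0 in replicates 2, 4, 5 and 7. The non-zero values correspond to 25 to 430 reads. A value of 0 cannot be read as absence of the transcript, because genes used by every cell were listed at 0 as well. *Uros*, an enzyme of haem synthesis in all tissues, was above 0 in 5 of 8 vehicle and 4 of 7 BDE-47 mice. *Alas2* was listed at 0 in BDE-47 replicate 7, which had the highest *Hbb-bs* level of its group, and was highest in vehicle replicate 4, where *Hbb-bs* was 7.91.

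**Figure D1:**
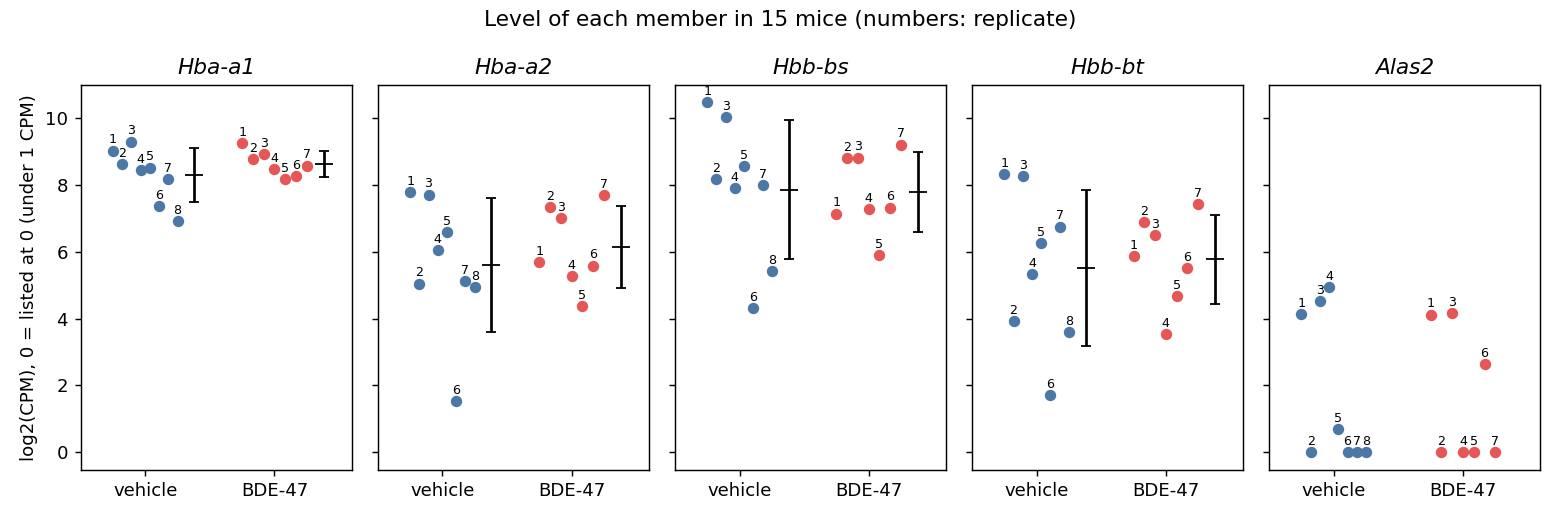
Level of the 5 members in log2(CPM) on the vertical axis for vehicle (blue) and BDE-47 (red) mice, 1 numbered point per replicate, with the mean and SD of each group as a black bar except for *Alas2*, which has mice listed at 0. The groups overlap for each member, and vehicle replicates 6 and 8 lie at or near the bottom of the haemoglobin panels.

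Reads on the 4 haemoglobin genes together made up 0.248% of mapped reads in vehicle replicate 1 (95% Wilson interval 0.246% to 0.251%) and 0.218% in vehicle replicate 3. The lowest shares were 0.0190% in vehicle replicate 6 (0.0183% to 0.0197%) and 0.0206% in vehicle replicate 8. BDE-47 mice lay between 0.0393% in replicate 5 and 0.135% in replicate 7, inside the vehicle range. The mean share was 0.101% ± 0.0858 (SD, n = 8) with vehicle and 0.0865% ± 0.0371 (SD, n = 7) with BDE-47. Without vehicle replicates 6 and 8 the vehicle mean was 0.128% ± 0.0823 (SD, n = 6), and without 4 mice the means were 0.104% ± 0.0644 (SD, n = 5) and 0.0916% ± 0.0379 (SD, n = 6). The Wilson intervals cover counting error only, and reads without molecular identifiers are not independent molecules. These intervals were narrow beside the spread between mice, but the error of sampling molecules was not measured.

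The make-up of the haemoglobin reads also differed between mice. *Hba-a1* held 21.0% of them in vehicle replicate 1 and 86.3% in vehicle replicate 6, and 28.3% to 73.1% in BDE-47 mice. The ratio of summed α to summed β CPM ran from 0.426 in vehicle replicate 1 to 7.21 in vehicle replicate 6. In BDE-47 mice it ran from 0.775 in replicate 7 to 3.63 in replicate 5. It was lowest in the 2 mice with the largest haemoglobin share, at 0.426 and 0.624 in vehicle replicates 1 and 3, and highest at 7.21 in vehicle replicate 6, the mouse with the smallest share of them. Between these mice the order was not strict. The ratio was 3.32 in BDE-47 replicate 1, at a share of 0.0862%, and 2.73 in vehicle replicate 8, at a share of 0.0206%. Ratio and share are built from the same reads, so they are not independent measures. Without vehicle replicates 6 and 8 it ran from 0.426 to 1.48 in vehicle mice, and without 4 mice from 0.624 to 1.48 in vehicle and from 0.775 to 3.63 in BDE-47 mice. The ratio of *Hbb-bs* to *Hbb-bt* ran from 2.31 in BDE-47 replicate 5 to 19.1 in vehicle replicate 2. *Hba-a1* exceeded *Hba-a2* in each mouse, by 1.84-fold in BDE-47 replicate 7 and by 56.6-fold in vehicle replicate 6.

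**Figure D2:**
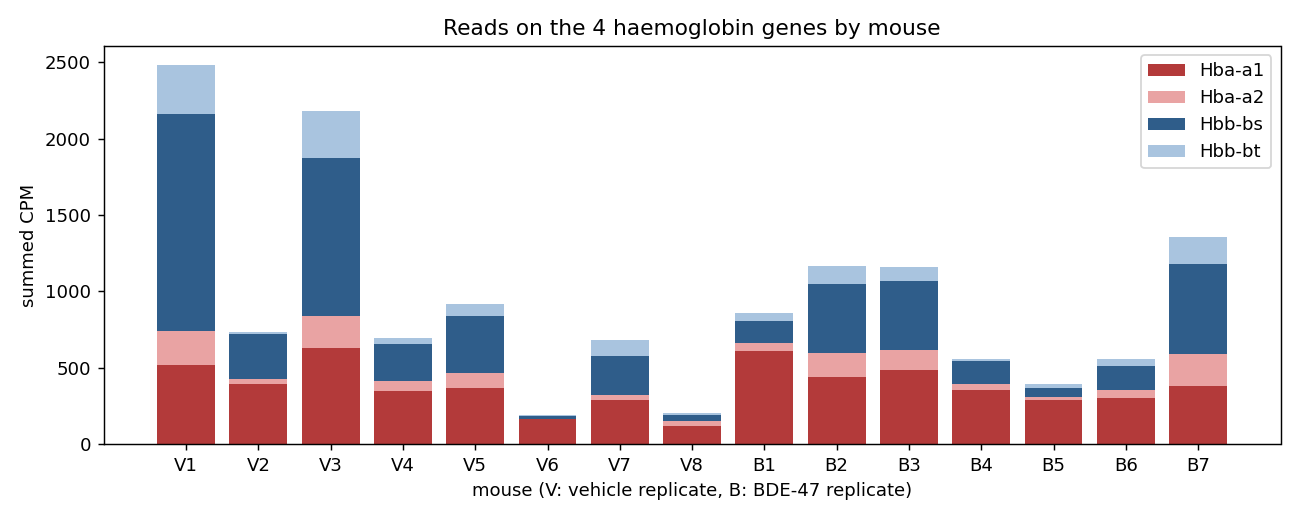
Summed CPM of the 4 haemoglobin genes, stacked by gene, for each vehicle (V) and BDE-47 (B) replicate. Vehicle replicates 1 and 3 reach 2483 and 2182 CPM, vehicle replicates 6 and 8 reach 190 and 206 CPM, and *Hba-a1* takes 21.0% of the tallest bar and 86.3% of the shortest.

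Across 15 mice *Hba-a2*, *Hbb-bs* and *Hbb-bt* varied together. Pearson's r was 0.914 for *Hba-a2* with *Hbb-bs* (rho 0.893), 0.893 for *Hba-a2* with *Hbb-bt* (rho 0.871) and 0.888 for *Hbb-bs* with *Hbb-bt* (rho 0.871). The permutation p of these r was 1e-05, 1e-05 and 2e-05 and that of the rho 4e-05, 3e-05 and 8e-05 (100000 permutations, smallest possible 1e-05), and all 3 stayed under 0.05 after Benjamini-Hochberg adjustment over 10 pairs of members (5e-05, 5e-05 and 6.67e-05 for r; 0.0002, 0.0002 and 0.000267 for rho). Leaving out the 2 mice farthest from the median gave r of 0.855, 0.810 and 0.791. Within vehicle mice r was 0.916, 0.906 and 0.924, and within BDE-47 mice it was 0.985, 0.865 and 0.778. Without the 4 mice that stood apart r was 0.875, 0.791 and 0.731 (adjusted permutation p = 0.0012, 0.0198 and 0.0333). In BDE-47 mice the adjusted exact permutation p was 0.0198, 0.0615 and 0.127, so 1 of the 3 passed there.

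*Hba-a1* followed the others less closely. Its r was 0.707 with *Hba-a2* (rho 0.775), 0.794 with *Hbb-bs* (rho 0.714) and 0.714 with *Hbb-bt* (rho 0.646). The permutation p was 0.00464, 0.00063 and 0.0025 for r, or 0.00773, 0.00158 and 0.005 after adjustment, and 0.00097, 0.00404 and 0.0106 for rho, or 0.00243, 0.00808 and 0.0177 after adjustment. The 2 farthest mice were vehicle replicates 6 and 8 in each case, and without them r was 0.626, 0.583 and 0.506. The adjusted permutation p over 13 mice was then 0.0598, 0.0605 and 0.109, so none of the 3 passed the adjusted threshold without those mice, although r stayed above 0.5. The unadjusted p was 0.0239, 0.0363 and 0.0763. Within BDE-47 mice r was 0.442, 0.407 and 0.432, each with an adjusted exact permutation p of 0.52. Without 4 mice r was 0.568, 0.496 and 0.434, with adjusted permutation p of 0.143, 0.2 and 0.261. The difference between the groups in these correlations was not tested, and no pooled r is given for *Alas2*, whose values split into mice at 0 and mice above 0.

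**Figure D3:**
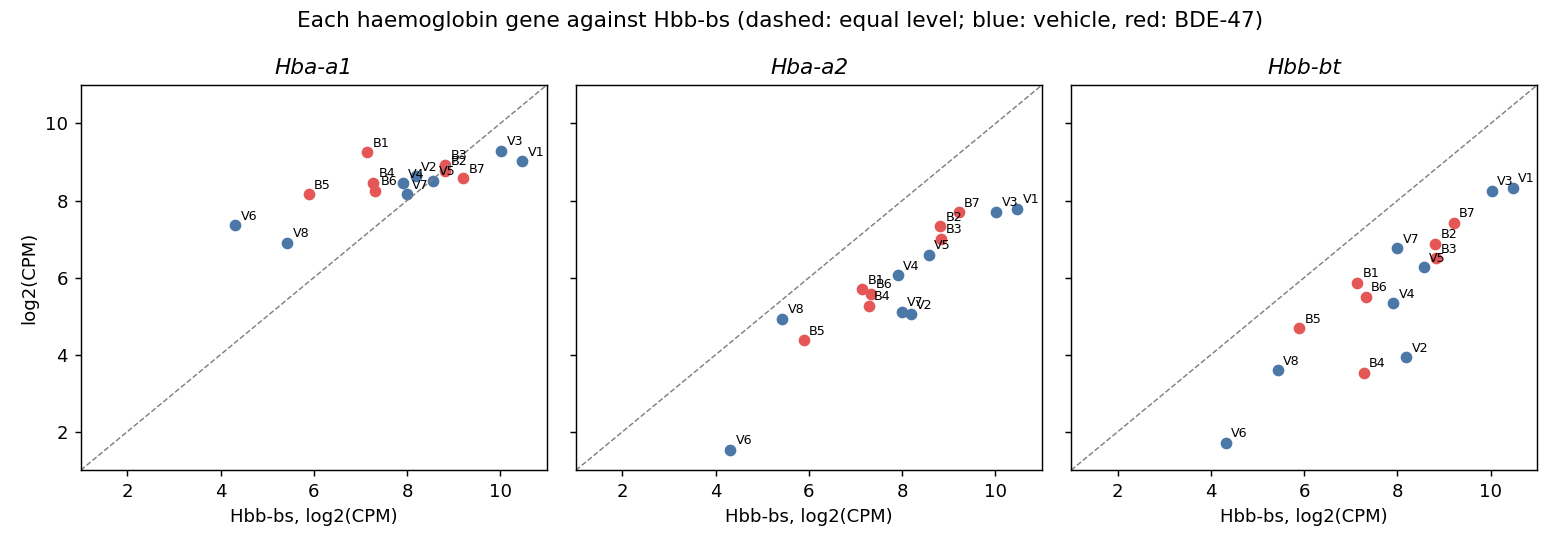
log2(CPM) of *Hba-a1*, *Hba-a2* and *Hbb-bt* (vertical axes) against log2(CPM) of *Hbb-bs* (horizontal axis) in vehicle (V, blue) and BDE-47 (B, red) replicates, with a dashed line of equal level. *Hba-a2* and *Hbb-bt* lie under the line in each mouse and rise with *Hbb-bs*, whereas *Hba-a1* stays between 6.91 and 9.30 while *Hbb-bs* runs from 4.31 to 10.47.

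BDE-47 and vehicle mice were compared to ask whether exposure went with a different haemoglobin transcript level in the tissue. No member passed the test. The background was 0 of 9511 genes called by limma with Benjamini-Hochberg adjustment (0.0%), 443 genes with an unadjusted limma p under 0.05 (4.66%) and 2497 genes past 2-fold without a test (26.3%). Of the 5 members, 0 were called, 0 had an unadjusted p under 0.05 and 0 were past 2-fold. The lowest limma adjusted p of any gene was 0.982.

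For *Hba-a1* the mean log2(CPM) was 8.29 ± 0.81 (SD, n = 8) with vehicle and 8.63 ± 0.38 (SD, n = 7) with BDE-47. The difference of 0.34 (SE 0.35, 95% interval -0.36 to 1.04) had a two-sided exact permutation p of 0.339 and a limma adjusted p of 0.982. For *Hba-a2* the means were 5.60 ± 2.00 and 6.14 ± 1.22, and the difference was 0.54 (SE 0.67, interval -0.81 to 1.90, exact permutation p = 0.575). For *Hbb-bs* the means were 7.86 ± 2.09 and 7.78 ± 1.20. Its difference was -0.08 (SE 0.60, interval -1.29 to 1.13, exact permutation p = 0.932). For *Hbb-bt* the means were 5.52 ± 2.34 and 5.77 ± 1.34, with a difference of 0.24 (SE 0.74, interval -1.25 to 1.74, exact permutation p = 0.810). For *Alas2*, listed at 0 in 4 mice of each group, the difference in mean listed value was -0.23 (SE 1.02, interval -2.28 to 1.83, exact permutation p = 0.824). The limma adjusted p was between 0.993 and 0.999 for the last 4 genes.

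These SEs and intervals are those of limma with a trend in the prior variance. The intervals of *Hbb-bs*, *Hbb-bt* and *Alas2* include a 2-fold change in either direction. Those of *Hba-a1* and *Hba-a2* include a 2-fold rise but not a 2-fold fall. For *Hba-a2* this depended on the prior. Without the trend its interval was -1.23 to 2.32, which includes a 2-fold fall, whereas that of *Hba-a1* was -0.74 to 1.42. The SE of *Hbb-bs* was then 0.87 in place of 0.60. For 3 members the sign of the difference depended on vehicle replicates 6 and 8. Without them the difference was -0.05 for *Hba-a1*, -0.25 for *Hba-a2*, -1.07 for *Hbb-bs*, -0.71 for *Hbb-bt* and -0.82 for *Alas2*, with exact permutation p of 0.833, 0.711, 0.126, 0.409 and 0.493. In these 13 mice the limma interval of *Hbb-bs*, fitted with the trend only, was -1.89 to -0.25. Its unadjusted limma p was 0.0111 and its adjusted p 0.990, and the intervals of the other members included 0. Without these and vehicle replicate 1 and BDE-47 replicate 6 it was 0.09, 0.13, -0.67, -0.30 and -0.65 (exact permutation p = 0.725, 0.861, 0.359, 0.753 and 0.578). In these 11 mice limma called 1 gene of 9511, *Wfdc18* (adjusted p 0.0172, against 0.982 with all 15 mice), which is neither a member nor on a list and was named after its value was seen. The part that lymph node or muscle transcripts play in the members' differences was not tested.

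**Figure D4:**
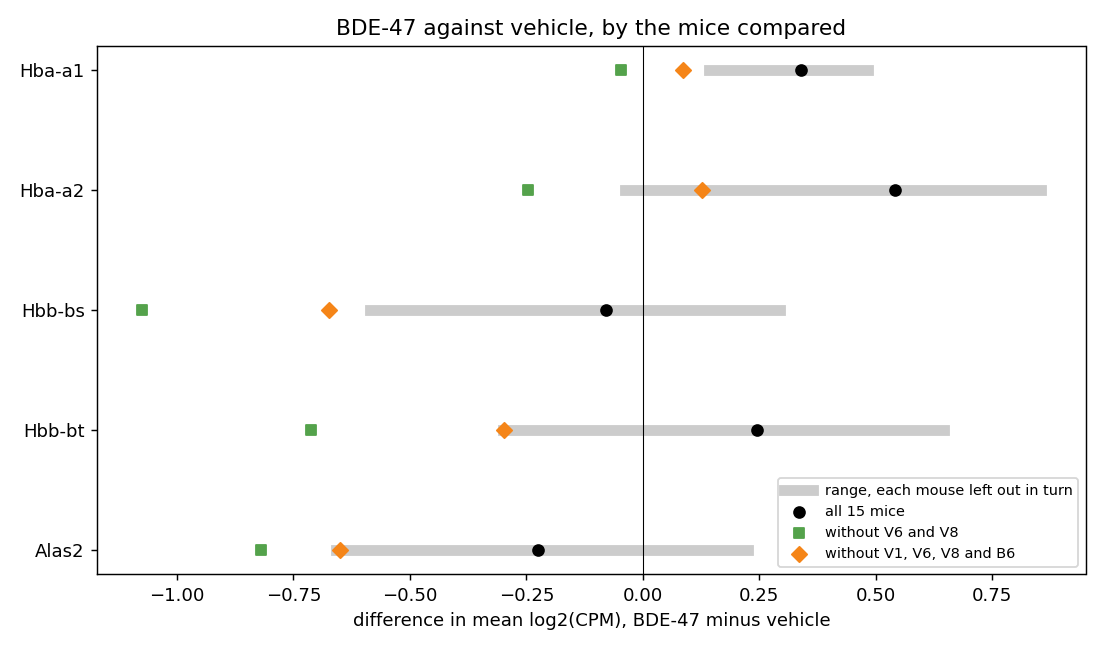
Difference in mean log2(CPM), BDE-47 minus vehicle, for each member with all 15 mice (black circles), without vehicle replicates 6 and 8 (green squares) and without 4 mice (orange diamonds). Grey bars span the differences with each mouse left out in turn. With all mice 3 of the 5 differences are above 0, and without vehicle replicates 6 and 8 all 5 are below 0.

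Other genes of red cells were unevenly detected. Of 34 erythroid marker genes, 33 were in the files. Of these 23 were above 0 in at least 1 mouse and 10 were listed at 0 in all mice, among them *Epb42* of the red cell membrane skeleton, *Rhag* of the Rh complex and the transcription factor *Gata1*. The filter for testing, 1 CPM or more in 7 or more mice, was passed by 9 genes of the list, of which 0 were called in either direction, with a median difference of 0.11 beside -0.02 over all genes tested. *Slc4a1*, the anion exchanger of the red cell membrane, was 3.60 in vehicle replicate 1 and 0.09 in vehicle replicate 7 and listed at 0 in the other mice. *Aqp1*, a water channel of red cells and of endothelium, was above 0 in each mouse, from 6.17 to 9.41. *Ank1* was 8.08 in BDE-47 replicate 6, the mouse with muscle transcripts, and listed at 0 in the other 14.

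Vehicle replicate 1 differed from the rest in how many blood cell genes were above 0. It had 21 of 33 erythroid genes above 0, against 6 to 14 in other mice. Among the erythroid genes above 0 in this mouse alone were *Klf1* (an erythroid transcription factor, 0.58), *Gfi1b* (2.88), *Hemgn* (1.10) and *Epor* (the erythropoietin receptor, 2.71). So were the platelet genes *Gp1ba* (1.73), *Gp1bb* (1.14) and *Treml1* (2.78). Of the neutrophil list, *Ly6g* (0.81), *Camp* (5.10), *Ngp* (5.67), *Elane* (1.41) and *Mpo* (4.27) were confined to it, and several of these encode granule proteins made in neutrophil precursors. *S100a8* and *S100a9*, calcium-binding proteins of neutrophils, were also highest there, at 7.32 and 7.73. Other genes of these lists were higher in other mice. *Pf4* was 3.36 against 6.64 in BDE-47 replicate 4, and *Itga2b* 3.88 and *Itgb3* 3.71 against 6.30 and 4.98 in vehicle replicate 6. *Mmp8* was 3.08 against 4.42 in vehicle replicate 2, and *Ltf* 7.72 against 8.59 in BDE-47 replicate 5. The platelet genes summed to 83.7 CPM, against 111 CPM in vehicle replicate 6 and 115 CPM in BDE-47 replicate 4. This mouse also had 11490 genes above 0, the most of any vehicle mouse. BDE-47 replicate 3 had more, 12689, with 14 of 33 erythroid genes above 0. Whether the marker counts follow the number of genes detected was not tested. Vehicle replicate 3, with nearly as many haemoglobin reads, had 8 erythroid genes, 2 platelet genes and 1 neutrophil gene above 0. Over both groups 0 of the 3 tested platelet genes and 0 of the 3 tested neutrophil genes were called.

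**Figure D5:**
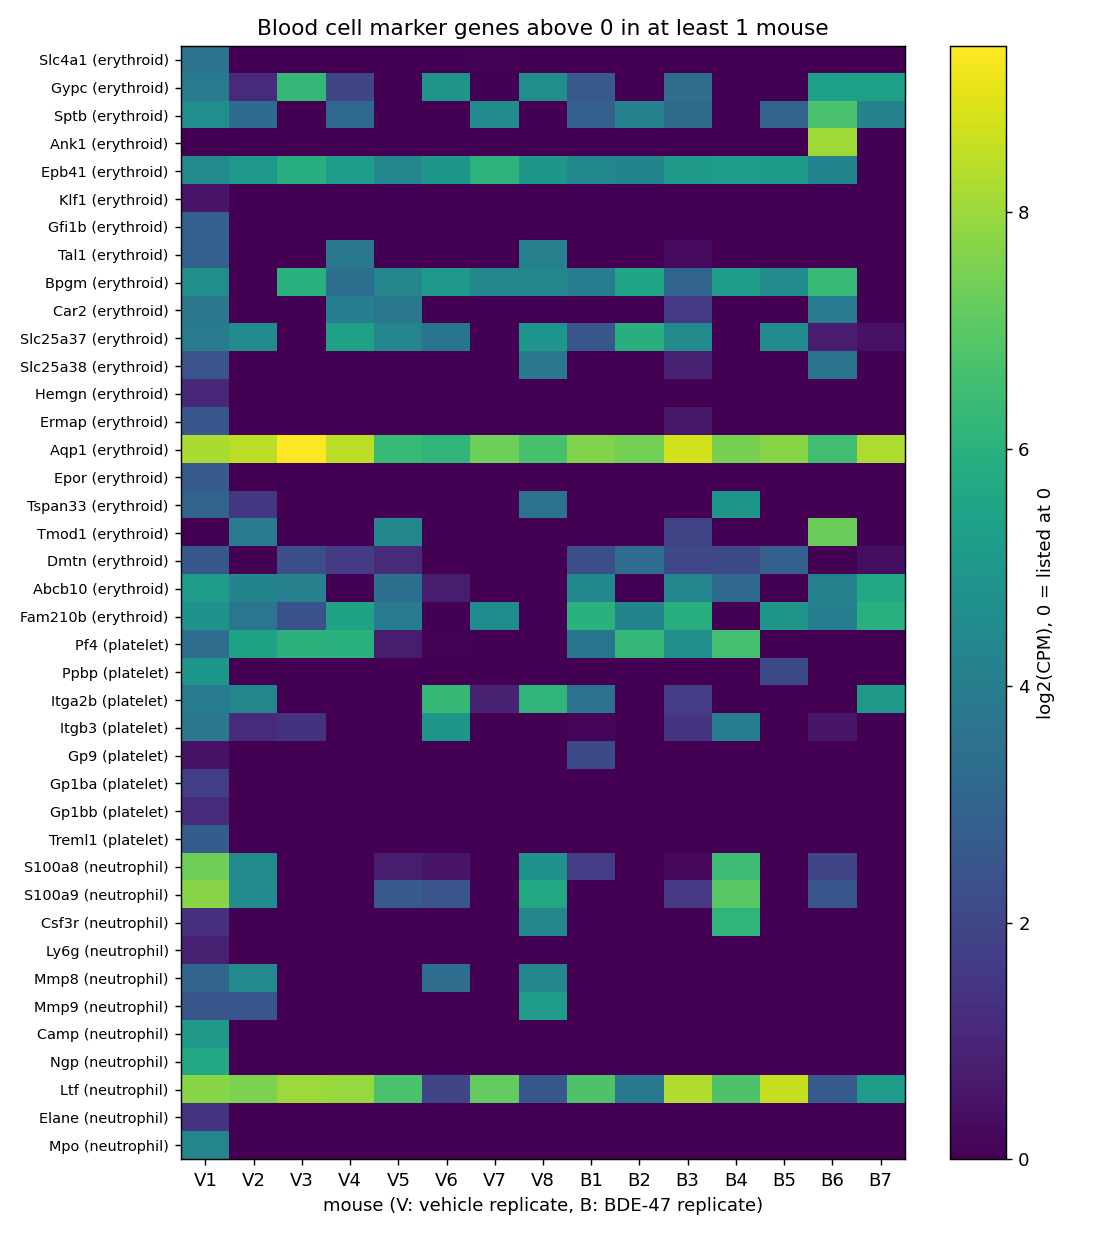
log2(CPM) of erythroid, platelet and neutrophil marker genes above 0 in at least 1 mouse (rows, with the list in brackets) in each vehicle (V) and BDE-47 (B) replicate (columns), where the darkest colour is a gene listed at 0. The column of vehicle replicate 1 has 8 platelet and 11 neutrophil genes above 0, and *Klf1*, *Gfi1b*, *Hemgn* and *Epor* are above 0 in it alone.

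Of 12 other globin genes, 10 were in the files and 6 were listed at 0 in all mice, among them the embryonic *Hbb-y* and the neuronal *Ngb*. *Cygb*, a globin of fibroblasts and other stromal cells, was above 0 in each mouse at 6.03 ± 0.60 with vehicle and 6.49 ± 0.59 with BDE-47, a difference of 0.45 (SE 0.46) that was not called by limma. *Mb*, the oxygen store of muscle, was 10.26 in BDE-47 replicate 6 and at most 2.42 elsewhere. The embryonic α-like gene *Hba-x* was above 0 in 8 mice, with its highest level, 6.15, in vehicle replicate 4. *Hbb-bh1*, an embryonic β-like gene, was above 0 in 4 mice, up to 5.25 in BDE-47 replicate 2. In the 2 mice with most adult haemoglobin reads *Hbb-bh1* was listed at 0, and *Hba-x* was 3.05 in vehicle replicate 1 and listed at 0 in vehicle replicate 3.

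All 8 enzymes of haem synthesis outside red cells passed the filter, 0 were called, and 6 were higher and 2 lower with BDE-47, with a median difference of 0.16. *Alas1* was 4.31 ± 1.28 with vehicle and 4.71 ± 0.88 with BDE-47. *Fech*, which inserts iron into the ring, was above 0 in 5 of 8 vehicle and 7 of 7 BDE-47 mice, with a difference of 1.01 (SE 1.06). Of 18 genes of haem clearance and iron handling, 14 passed the filter, 0 were called, 6 were higher and 8 lower, with a median difference of -0.15. *Hp*, which encodes haptoglobin, the plasma protein that binds free haemoglobin and is also made by fat tissue, ran from 4.07 in vehicle replicate 8 and 4.92 in vehicle replicate 6 to 11.05 in vehicle replicate 3. *Hmox1*, which breaks down haem, was above 0 in 7 of 8 vehicle and 4 of 7 BDE-47 mice, with a difference of -1.37 (SE 1.08). *Fth1*, a ferritin chain that stores iron, was 9.74 ± 0.35 with vehicle and 9.59 ± 0.43 with BDE-47. The 12 endothelial markers, which stand for the vessels that hold the blood, all passed the filter, 0 were called, and 5 were higher and 7 lower, with a median difference of -0.14. In *Pecam1* and *Cldn5*, 2 junction proteins of endothelium, the unadjusted limma p was under 0.05, with differences of -1.32 (SE 0.60) and -1.74 (SE 0.86), whereas *Vwf*, a clotting factor of endothelium, had a difference of 2.18 (SE 1.13). *Cldn5* was 5.71 and 5.53 in vehicle replicates 6 and 8, and the part of the lymph node transcripts in its difference was not tested.

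The genes whose pattern was most like the mean of the 4 haemoglobin genes were ranked by Pearson's r over 15 mice, as a description without a test, among 9506 genes that reached 1 CPM in 7 or more mice. *Pgrmc2*, a haem-binding membrane protein, came first at 0.900. Among the next 9 genes were *Retn* (0.870), *Pnpla2* (0.870), *Smoc1* (0.869), *Ehd2* (0.868), *Nnmt* (0.862), *Rbp4* (0.860), *Plin4* (0.857) and *Nfia* (0.854). *Retn* encodes the adipocyte hormone resistin, *Pnpla2* the lipase that starts the breakdown of stored fat, and *Plin4* a lipid droplet protein. The level of each of these 10 genes was at its lowest in vehicle replicate 6 or 8. At the other end were *Actr2* (-0.852), *Ctdp1* (-0.759), *Crlf3* (-0.752), *Irf8* (-0.744), a transcription factor of B cells and myeloid cells, and *Sec61g* (-0.742). Without vehicle replicates 6 and 8, r was 0.821 for *Pgrmc2* and 0.656 to 0.748 for the other 9 (without 4 mice 0.851 and 0.566 to 0.929), and 1 of the first 10 genes, *Pgrmc2*, was again among the first 10. For comparison, r of a haemoglobin gene with the mean of the other 3 was 0.764 for *Hba-a1*, 0.922 for *Hba-a2*, 0.939 for *Hbb-bs* and 0.907 for *Hbb-bt*.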

How the data were processed

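Mammary RNA of 15 mice (8 vehicle, 7 BDE-47, grouped by the labels) was sequenced from QuantSeq 3′ FWD libraries. Reads were mapped by the authors with STAR 2.5.3a and scaled to CPM, and the submitters' processing notes name GRCm38. The deposited values are log2(CPM), with genes under 1 CPM listed at 0, as read from the values, and were used as given without a pseudocount. Mapped reads per mouse (10.06 to 19.58 M) were recovered from the spacing of low CPM values, of which 100% were whole reads within 0.1 read. Of 52636 entries per mouse, 110 repeated a gene name and the entry of highest mean was kept.

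Each member was compared by a two-sided exact permutation test of the difference in means (6435 regroupings, smallest p 0.000155). The 9511 genes that reached 1 CPM in 7 or more mice were tested with limma 3.58.1 (trend in the prior variance) and Benjamini-Hochberg adjustment, which was tested on simulated data first. Shares of reads carry 95% Wilson intervals. The study's xenograft covariate is not in the labels. Replicate numbers in the labels were not used to pair mice of different groups in the main tests. Labels name no further batch that differs between mice.

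The members and lists were chosen with earlier results of these data known. The text names all members, the other globin, haem synthesis and clearance genes of fixed lists, erythroid markers above 0 in a mouse, the most abundant genes of other marker lists, and the 10 most and 5 least similar genes; of these lists only some genes are printed, and a few are not reported here. *Wfdc18*, *Pecam1*, *Cldn5*, *Vwf* and the platelet and neutrophil genes found in 1 mouse alone were chosen after their values were seen. Promoters were read from RefSeq (GRCm38.p6), and all 5 members matched. Transcript ends were read from GENCODE M39 (GRCm39) and aligned with Biopython 1.88. Python 3.11.15, numpy 2.4.6, scipy 1.17.1, pandas 2.3.3 and matplotlib 3.10.9 were used. Alternatives were other pseudocounts, filters, scalings and sets of mice.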

Additional observations from a re-analysis of the deposited data

Results flagged for a closer look

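Of 38 sets of values (members, ratios and summed marker lists within a group), 9 held a mouse whose gap to its nearest neighbour was large for the range of its group by Dixon's criterion. Chance alone meets this criterion in about 1 of 20 groups of normally distributed values. Ratios and summed CPM on a linear scale need not follow that distribution, so the count of 9 is a description and is not set against that rate. In vehicle replicate 6, *Hba-a2* was at 1.53 log2(CPM), the α to β ratio was 7.21 and the ratio of *Hba-a1* to *Hba-a2* was 56.6. In vehicle replicate 1 the neutrophil genes summed to 707 CPM and the skeletal muscle genes to 184 CPM. In vehicle replicate 3 the genes of haem clearance and iron summed to 4313 CPM. In BDE-47 replicate 6 the skeletal muscle genes summed to 84118 CPM and the other globins, chiefly *Mb*, to 1280 CPM. In BDE-47 replicate 3 the lymph node B cell genes summed to 2.37 CPM, where the other BDE-47 mice were listed at 0, so that any value above 0 would have been flagged.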

How the results depend on the processing

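For each member 24 alternatives were run, and 0 gave an exact permutation p under 0.05. The lowest p was 0.171 for *Hba-a1*, 0.368 for *Hba-a2*, 0.126 for *Hbb-bs*, 0.409 for *Hbb-bt* and 0.493 for *Alas2*. The sign of the difference was unstable, and the cause was not tested. Without the vehicle mice with lymph node transcripts it was -0.046 for *Hba-a1*, -0.25 for *Hba-a2* and -0.71 for *Hbb-bt*. For *Hbb-bt* it was -0.57 as a ratio of mean CPM and -0.30 without 4 mice, a setting chosen after seeing the data. For *Hbb-bs* it was 0.014 with median-of-ratios size factors, which moved the median difference of all genes from -0.02 to 0.06.

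When single mice were left out the difference ran from 0.14 to 0.48 for *Hba-a1*, from -0.039 to 0.85 for *Hba-a2*, from -0.58 to 0.29 for *Hbb-bs*, from -0.30 to 0.65 for *Hbb-bt* and from -0.66 to 0.23 for *Alas2*. The sign turned for *Hba-a2* without vehicle replicate 6, and for *Hbb-bs* without vehicle replicate 1, 3 or 5 or BDE-47 replicate 1, 4 or 5. It turned for *Hbb-bt* without vehicle replicate 6 or 8 or BDE-47 replicate 7, and for *Alas2* without vehicle replicate 1, 3 or 4 or BDE-47 replicate 2, 4, 5 or 7.

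With the replicate number as a block (vehicle replicate 8 left out) the difference of *Hbb-bt* was -0.031, and limma called 0 genes. Mice with the same number showed little shared deviation by r (from -0.02 to 0.05, 0 of 7 pairs over 0.1). Even so, 3 vehicle mice were most like the BDE-47 mouse of their own number, a count that was not tested against chance. The numbers were not used as pairs in the main tests, and whether they mark a shared processing order was not tested.

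limma called 0 genes with each mouse left out and 1 without 4 mice. Of 10 pairs of members, 7 passed an adjusted p of 0.05 by Pearson's r, the 6 haemoglobin pairs and *Hba-a1* with *Alas2*, whose mice at 0 make its r unfit to report. By Spearman's rho 7 passed as well, with *Hba-a2* in place of *Hba-a1* beside *Alas2*. The count was 1 within BDE-47 mice, 3 without the lymph node mice and 3 without 4 mice (the last pair of settings chosen after seeing the data). Per read on genes above 0, the haemoglobin share with BDE-47 was 0.153% in place of 0.0865% and that with vehicle 0.173% in place of 0.101%. The floor of 1 CPM in the files limits *Alas2* and other genes near that level.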
